A study of Homo sapiens with 9 samples.

Results

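The genes described here are 10 that carry out or prepare silencing by small RNAs, namely the argonautes AGO1, AGO2, AGO3 and AGO4, their partners TNRC6A, TNRC6B and TNRC6C, the nucleases DICER1 and DROSHA, and TARBP2, which works beside DICER1. They were chosen by name for their place in this pathway, because every condition of the experiment, the control included, was a transfection with siRNA. The count table holds 58735 genes, of which these are 10. All 10 were among the 15555 genes that passed the filter on low counts and were tested.

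Small interfering RNAs and microRNAs act from within an argonaute protein, which holds the short strand and pairs it with a messenger RNA. MicroRNAs are first cut from their primary transcripts by DROSHA in the nucleus and then by DICER1 in the cytoplasm, whereas a synthetic siRNA can be loaded without these cuts. Of the human argonautes AGO2 is the one best known for slicing a fully paired target, and TNRC6 proteins bind argonautes and bring in the complexes that shorten poly(A) tails and remove caps.

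VCaP, an established line of prostate cancer cells, was kept in serum-containing medium with 2 nM DHT, an androgen, in all groups. It received a control siRNA (siCtrl, genotype given as WT) or 1 of 2 siRNAs against CDO1, the enzyme that oxidises cysteine (siCDO1A and siCDO1C, genotype given as CDO1 knockdown). Each group has 3 libraries, called biological replicates in the titles, and a batch number that equals the replicate number. The labels give neither the sequences of the siRNAs nor the time between transfection and harvest. No untransfected group is part of the comparisons, so that an effect shared by all transfections cannot be seen. For the same reason a change with both CDO1 siRNAs cannot be told apart from the opposite change with the control siRNA.

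Libraries held from 12061295 to 16073698 counts, and 3 counts, taken as the floor, were worth 0.187 to 0.249 CPM, the unit in which the counts of a gene are scaled to the size of the library. CDO1 fell from 14.0 ± 0.277 CPM in siCtrl (SD, n = 3) to 2.501 ± 0.674 with siCDO1A and 1.69 ± 0.974 with siCDO1C, a reduction of 82.1% and 87.9% (exact permutation test, two-sided, p = 0.1 each, the smallest that 3 against 3 libraries allow). All 10 markers of prostate cancer cells were expressed, with a summed level of 3274 to 3614 TPM (counts divided by gene length, then scaled to the same total in each library), and the blood and endothelial lists summed to at most 1.03 and 1.94 TPM, with HBB and CDH5 at 0. The fibroblast list summed to 21.4 to 24.9 TPM in siCtrl, 21.6 to 25.2 with siCDO1A and 15.98 to 18.7 with siCDO1C, most of it from LUM (means of 21.5, 21.3 and 15.5 TPM), while THY1 and COL1A2 were at 0. The part of this difference in the results below was not tested.

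Replicate 2 of siCDO1C stood furthest apart for these genes. It lay below both other siCDO1C libraries for 8 of the 10, above both for 1, and its median deviation from the mean of the other 2 libraries of its group over the 10 was -0.33 on the log2 scale, against 0.16 and 0.18 for replicates 1 and 3. Across the tested genes the same library differed from the other 2 by 0.14 in median over genes up to the lower quartile of length (2760 bases) and -0.15 over genes from the upper quartile (7149 bases), to which 9 of the 10 genes belong. The spread between libraries was also wider in that group, with a biological coefficient of variation of 10.8%, against 7.06% for siCDO1A and 5.26% for siCtrl. The fold changes with siCDO1C are therefore also given without that library, and an alternative removes each library's trend with length and GC content. Because that library was picked for its deviation on these same genes, leaving it out narrows the spread of its group. The adjusted p-values without it describe its weight and are not read as tests. A smaller deviation of the opposite sign was seen in siCDO1A replicate 3. This library lay above both others of its group for 8 of the 10 genes, with a median deviation of 0.18. Its medians were -0.076 over the short genes and 0.085 over the long genes. Without it 3454 of all genes were called with siCDO1A, against 2309 with all libraries. Among siCDO1A fits without 1 library, leaving it out gave the lowest log2 fold changes of AGO1 (-0.24), DICER1 (-0.40) and AGO2 (0.02). The same held for TNRC6A (0.11), TNRC6C (0.03) and DROSHA (-0.07), but not for AGO3, AGO4, TNRC6B or TARBP2. In siCDO1A replicate 1, 7 of the 10 lay below both others.

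AGO4 was the gene of this group called higher than in siCtrl with both siRNAs. Its 3′UTR holds a short sequence already known from earlier results of these data to be frequent among genes higher with both. The sequence is GCAGTACA, and the 4285-base 3′UTR of its transcript ENST00000373210 in GENCODE has 2 copies of it, 1237 and 4095 bases after the stop codon. The stretches around them lie on chromosome 1 of GRCh37, plus strand, at chr1:36320432-36320461 and chr1:36323290-36323319, and are shown with the 8 letters in capitals.
AGO4 first copy: cacgactacttGCAGTACAaattttttgct
AGO4 second copy: ctaataagtatGCAGTACActgtaatggca

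No other gene of the 10 has the 8 letters in its 3′UTR, although those of AGO3 (16755 bases), TNRC6B (12567), AGO2 (11888) and AGO1 (10925) are far longer, and TNRC6A has a single copy outside it. Of 12975 tested genes with an annotated 3′UTR, 249 (1.92%) hold at least 1 copy and 7 (0.054%) hold at least 2. Among the 7, NDUFV3 has 3 copies and AGO4, ARIH1, EMP2, KPNA4, MOGS and TMEM170B have 2 each. All but ARIH1 and KPNA4, thus 5 of the 7, were higher with both siRNAs, as were 46 of the 242 genes with a single copy (19.01%), 225 of the 12726 without a copy (1.77%) and 276 of all 12975 (2.13%). The median log2 fold change of the 7 was 0.48 with siCDO1A and 0.38 with siCDO1C, against 0.13 with each for the 249 and 0.00 with each for the genes without a copy. Because the 8 letters were picked on these libraries, these counts are a description and carry no test. Of 2370 mature human microRNAs in the RefSeq table, none has bases 2 to 8 that pair with letters 1 to 7 (GUACUGC) or with letters 2 to 8 (UGUACUG).

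**Figure D1:**
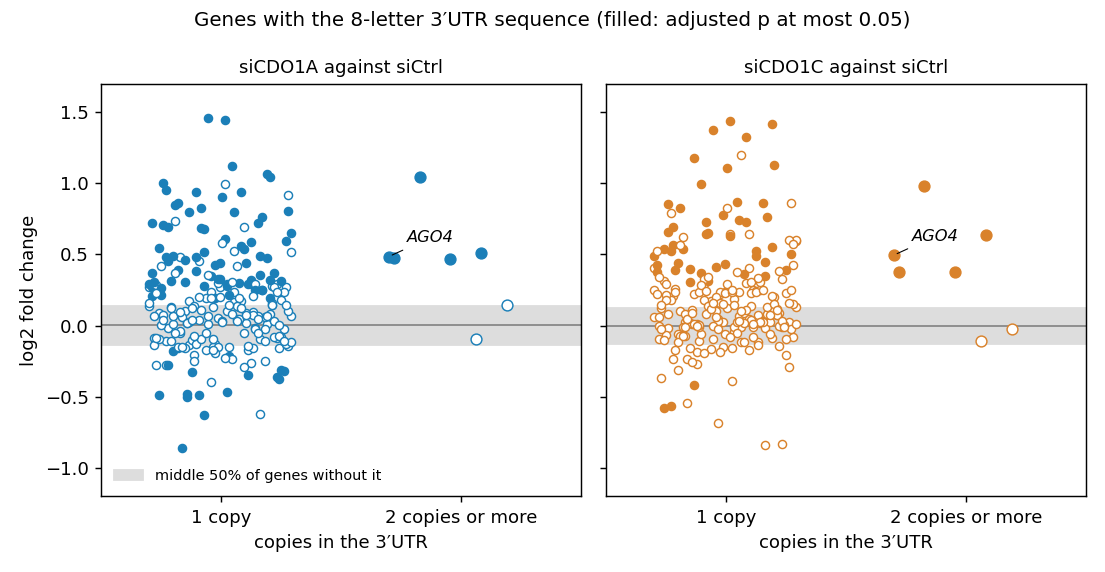
Log2 fold change against siCtrl of the 249 tested genes with GCAGTACA in the 3′UTR, by number of copies (1 circle per gene, filled where the adjusted p was at most 0.05), with siCDO1A on the left and siCDO1C on the right; the grey band runs from the lower to the upper quartile of the genes without it. AGO4 sits at 0.48 and 0.49, among the 5 filled circles of the 7 genes with at least 2 copies.

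AGO4, AGO1 and AGO3 are neighbours on chromosome 1 and are read from the same strand. In GRCh38, the build of the count table, AGO4 spans 35808172 to 35857890, AGO1 35869808 to 35930528 and AGO3 35930718 to 36072500. DICER1 lies on the minus strand of chromosome 14, from 95086228 to 95158010. The promoters of AGO4, AGO1 and DICER1 are shown because these are the genes whose siRNA libraries all lay on one side of the siCtrl libraries with each siRNA, AGO4 above and AGO1 and DICER1 below. Such separation is not particular to them. Of the 77 tested genes of the wider list described below, 34 were separated from siCtrl with siCDO1A and 21 with siCDO1C. The share over all tested genes is not given here, so nothing is read from the separation. The promoters run from 250 bases before to 50 after the start in the RefSeq table for GRCh38.p14, at chr1:35807766-35808065, chr1:35882959-35883258 and, as the first of 5 start regions, chr14:95157480-95157779, with the plus strand for the first pair and the minus strand for DICER1. The windows of AGO1 and DICER1 lie inside the gene spans given above. The AGO1 span begins upstream of its window, at 35869808, and a start there was not searched. Capitals mark GGGCGG (the GC box) and CCAAT on either strand.
AGO4 promoter: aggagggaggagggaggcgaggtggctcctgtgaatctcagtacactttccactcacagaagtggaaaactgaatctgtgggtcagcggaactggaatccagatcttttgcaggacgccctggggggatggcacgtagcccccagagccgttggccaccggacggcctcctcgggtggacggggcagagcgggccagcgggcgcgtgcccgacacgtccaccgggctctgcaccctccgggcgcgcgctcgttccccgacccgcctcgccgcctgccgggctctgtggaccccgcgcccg
AGO1 promoter: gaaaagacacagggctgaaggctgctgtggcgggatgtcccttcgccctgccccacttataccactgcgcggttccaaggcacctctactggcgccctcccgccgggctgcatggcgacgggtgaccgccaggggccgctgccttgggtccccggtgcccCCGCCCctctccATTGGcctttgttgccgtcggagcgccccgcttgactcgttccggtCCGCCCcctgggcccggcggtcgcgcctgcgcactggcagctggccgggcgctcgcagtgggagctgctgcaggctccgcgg
DICER1 promoter: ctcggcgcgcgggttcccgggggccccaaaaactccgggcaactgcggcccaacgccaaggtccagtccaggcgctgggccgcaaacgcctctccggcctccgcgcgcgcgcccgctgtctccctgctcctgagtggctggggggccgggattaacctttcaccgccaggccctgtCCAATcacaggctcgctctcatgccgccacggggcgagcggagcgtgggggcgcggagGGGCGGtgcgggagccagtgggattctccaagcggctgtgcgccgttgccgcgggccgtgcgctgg
AGO4 has none of these motifs in the window, AGO1 has 2 GC boxes and 1 CCAAT, and DICER1 has 1 of each. TATAAA was searched too and is in none of the 3. Of 35116 promoters in the table, 45.0% hold GGGCGG, 34.6% CCAAT and 11.5% TATAAA on either strand. CG pairs number 29 in AGO4, 30 in AGO1 and 37 in DICER1, against a median of 14 over all promoters.

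With siCDO1A, 5 of the 10 genes passed the threshold, an adjusted p of at most 0.05 in the quasi-likelihood test of edgeR, against 14.8% of all tested genes. AGO4 and TARBP2 were higher (7.37% of all genes were) and AGO1, TNRC6B and DICER1 were lower (7.48% were). With siCDO1C, 1 of the 10 passed, against 4.77% of all genes, and this was AGO4, which was higher (2.27% of all genes were higher and 2.5% lower). AGO4 was thus the 1 gene of the 10 called in the same direction with both, as were 3.62% of all genes. Both comparisons share the siCtrl libraries, so the second is no independent repeat of the first. The counts depended on single libraries. With siCDO1A the number of the 10 called fell to 1 without siCtrl replicate 1, to 2 without siCDO1A replicate 2 and to 3 without siCtrl replicate 2 or siCDO1A replicate 1. All genes called fell too, to 1348, 1336, 1292 and 1418 in these fits, from 2309 with all libraries. With siCDO1C the number of the 10 called rose to 4 without siCDO1C replicate 2, where all genes called numbered 2068. The number was 0 in edgeR without siCtrl replicate 2, siCtrl replicate 3, siCDO1C replicate 1 or siCDO1C replicate 3, with 4, 4, 4 and 5 of the 10 at an unadjusted p under 0.05. All genes called there numbered 272, 263, 368 and 546, against 742 with all libraries. Those at an unadjusted p under 0.05 numbered 2119, 2373, 2466 and 2751 of all genes. With all libraries 6 of the 10 had an unadjusted p under 0.05 with siCDO1A, beside 27.9% of all genes, and 4 with siCDO1C, beside 18.6%. The median log2 fold change of the 10 was 0.10 with siCDO1A and 0.11 with siCDO1C, beside 0.01 and -0.00023 over all genes, and the median size of change regardless of sign was 0.19 and 0.21, beside 0.15 and 0.14. In RNA of whole cultures, a change in the kinds of cells present cannot be told apart from a change in RNA per cell.

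**Figure D2:**
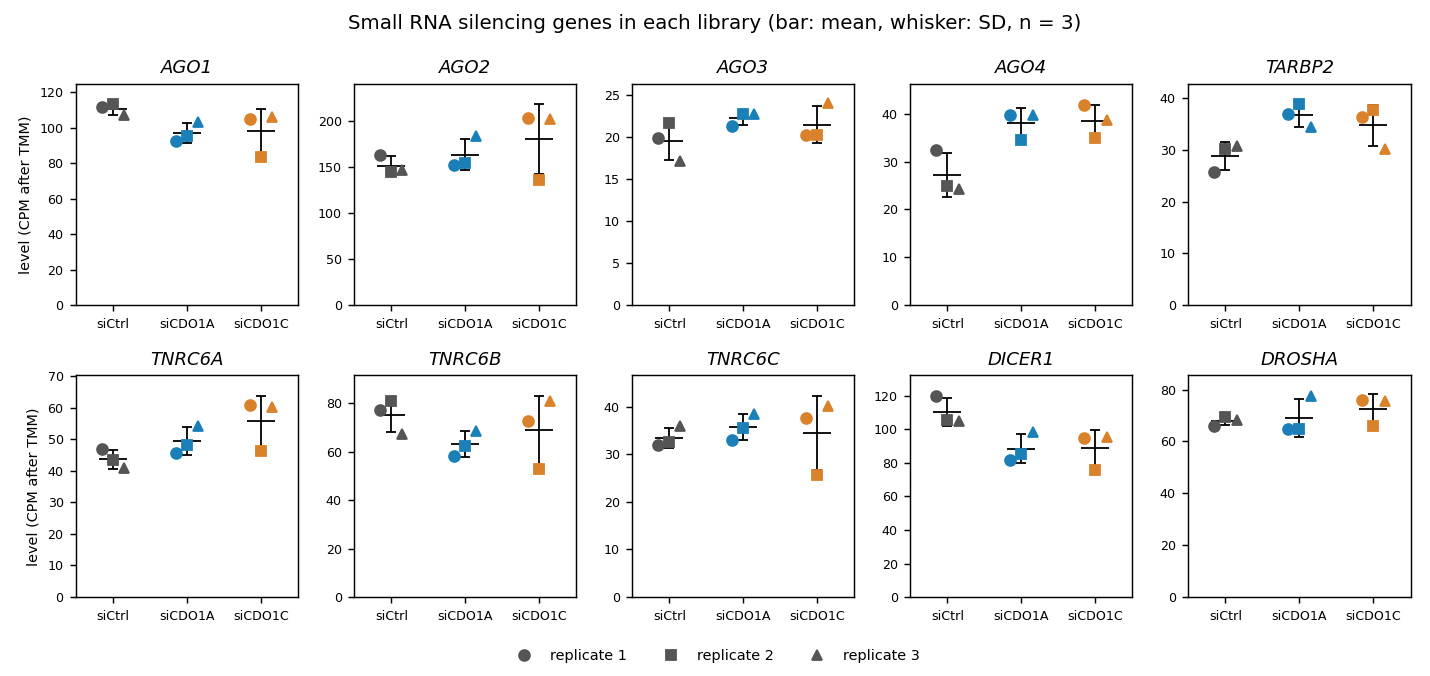
Level of each of the 10 genes (CPM after TMM scaling, axes from 0) in every library, with the mean as a bar and the SD as a whisker (n = 3 per group); marker shapes give the replicate number. All siRNA libraries of AGO4 lie above the siCtrl libraries and all of AGO1 and DICER1 below, and siCDO1C replicate 2 is the lowest of its group in 8 of the 10 panels.

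AGO4 (ENSG00000134698) loads small RNAs and represses their targets but is not known for slicing in human cells. Its level was 32.4, 24.96 and 24.2 CPM in siCtrl replicates 1 to 3. It was 39.8, 34.4 and 39.8 CPM with siCDO1A. It was 41.8, 34.9 and 38.6 CPM with siCDO1C. Every library of either siRNA lay above every siCtrl library, with siCtrl replicate 1 the closest. The log2 fold change was 0.48 with siCDO1A (SE 0.103, 95% interval 0.27 to 0.70, adjusted p = 0.00305), or 1.40-fold the siCtrl level. It was 0.49 with siCDO1C (SE 0.117, interval 0.25 to 0.74, adjusted p = 0.025), or 1.41-fold the siCtrl level. The call with siCDO1A was kept when any 1 library was left out (0.40 to 0.63). That with siCDO1C was lost without siCtrl replicate 2 (adjusted p = 0.15), siCtrl replicate 3 (0.156), siCDO1C replicate 1 (0.117) or siCDO1C replicate 3 (0.0505). It was kept without siCDO1C replicate 2, where the log2 fold change was 0.57 (adjusted p = 1.9e-04).

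AGO1 (ENSG00000092847), a neighbour of AGO4 with the same repressive role, went the other way. It had 112, 113 and 107 CPM in siCtrl, 92.4, 95.02 and 103 with siCDO1A and 105, 83.4 and 106 with siCDO1C. All 6 siRNA libraries lay below the 3 siCtrl libraries, by little in siCDO1C replicates 1 and 3. The log2 fold change was -0.19 with siCDO1A (SE 0.0626, 95% interval -0.32 to -0.06, adjusted p = 0.0438). With siCDO1C it was -0.18 (SE 0.0911, interval -0.38 to 0.01, adjusted p = 0.305), which did not pass, and without siCDO1C replicate 2 it was -0.07 (adjusted p = 0.464). The siCDO1A call rests on a small margin. It was lost without siCtrl replicate 1 (adjusted p = 0.138), siCtrl replicate 2 (0.17), siCDO1A replicate 1 (0.187) or siCDO1A replicate 2 (0.151), and also in 1 fit of all 9 libraries (0.181).

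AGO2 (ENSG00000123908), on chromosome 8 from 140520156 to 140635619, encodes the slicing argonaute. Its level was 163, 145 and 146 CPM in siCtrl, 153, 155 and 183 with siCDO1A and 203, 136 and 202 with siCDO1C. The siCDO1C libraries split, with replicates 1 and 3 above every other library and replicate 2 below every other one. The log2 fold change was 0.11 with siCDO1A (95% interval -0.03 to 0.26, adjusted p = 0.317) and 0.25 with siCDO1C (interval -0.06 to 0.55, adjusted p = 0.392). Without siCDO1C replicate 2 the latter was 0.42 (adjusted p = 3.8e-06), so 1 library decides whether AGO2 is called. AGO3 (ENSG00000126070) had the lowest counts of the 4, with 19.8, 21.6 and 17.2 CPM in siCtrl. It had 21.3, 22.7 and 22.8 CPM with siCDO1A and 20.2, 20.2 and 24.0 with siCDO1C, and the groups overlapped. Its log2 fold change was 0.20 (adjusted p = 0.214) and 0.13 (adjusted p = 0.611), the latter 0.18 (adjusted p = 0.353) without siCDO1C replicate 2. The argonautes resemble one another in coding sequence, and how reads matching several genes were counted is not given in the sources used here, so reads could be shared unevenly among them.

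Levels of different genes can be compared only per length. On that scale AGO2 made up 43.1% of the summed argonaute level in siCtrl, AGO1 36.0%, AGO4 16.8% and AGO3 4.16%. The share of AGO4 was 18.8%, 15.8% and 15.8% in siCtrl, 24.1%, 21.1% and 21.4% with siCDO1A and 21.3%, 23.6% and 19.8% with siCDO1C. The share of AGO1 was 33.8%, 37.5% and 36.5% in siCtrl, 29.2%, 30.5% and 29.1% with siCDO1A and 27.8%, 29.5% and 28.4% with siCDO1C. For both genes the groups did not overlap, and siCDO1C replicate 2 did not stand apart. The share of AGO4 was 5.40 percentage points higher with siCDO1A and 4.75 higher with siCDO1C than in siCtrl, and that of AGO1 differed by -6.37 and -7.36. Each of these 4 differences had p = 0.1 in the exact permutation test (two-sided), the smallest it can give with 3 against 3 libraries, and 0.2 after Benjamini-Hochberg adjustment over 8 tests, so none could pass. For AGO2 the share was 43.7% with siCDO1A and 45.7% with siCDO1C (exact permutation p = 0.5 and 0.3), and for AGO3 it was 4.48% and 4.15% (0.4 and 0.9). The summed level was 85.8 ± 7.10 TPM in siCtrl, 88.6 ± 7.47 with siCDO1A and 95.04 ± 17.5 with siCDO1C (SD, n = 3, exact permutation p = 0.6 and 0.4).

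**Figure D3:**
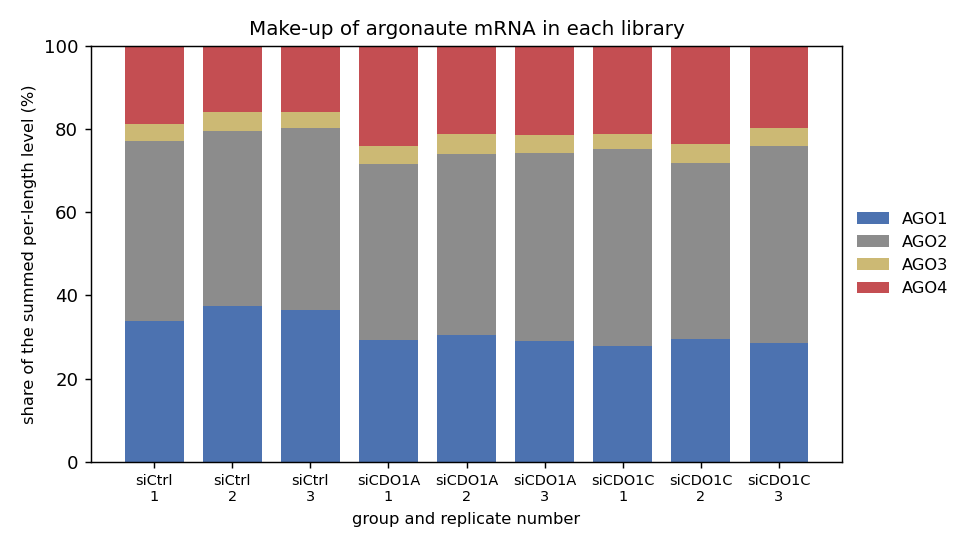
Share of AGO1, AGO2, AGO3 and AGO4 in their summed per-length level (%, stacked to 100) in each of the 9 libraries. The AGO4 segment is 15.8% to 18.8% in siCtrl and 19.8% to 24.1% with the CDO1 siRNAs, and the AGO1 segment shrinks from 33.8% or more to 30.5% or less.

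The TNRC6 genes encode the scaffolds through which argonautes reach the deadenylases. TNRC6A (ENSG00000090905, chromosome 16, 24610209 to 24827632) had 46.8, 43.3 and 40.8 CPM in siCtrl. It had 45.5, 48.2 and 54.3 CPM with siCDO1A and 60.7, 46.4 and 60.1 with siCDO1C. The groups overlapped in both comparisons, through siCtrl replicate 1. For TNRC6A the log2 difference was 0.18 with siCDO1A (adjusted p = 0.154) and 0.35 with siCDO1C (SE 0.106, 95% interval 0.12 to 0.58, adjusted p = 0.0764). Neither passed, but without siCDO1C replicate 2 it was 0.47 (adjusted p = 6.1e-05). With the trends of length and GC content removed, TNRC6A was called with both siRNAs (0.24, adjusted p = 0.00739, and 0.38, adjusted p = 0.00329).

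TNRC6B (ENSG00000100354, chromosome 22, 40044817 to 40335808) had 77.3, 80.7 and 67.3 CPM in siCtrl. It had 58.3, 62.2 and 68.7 CPM with siCDO1A and 72.7, 53.0 and 80.8 with siCDO1C. Both siRNA groups overlapped siCtrl, since siCDO1A replicate 3 was above siCtrl replicate 3 and the siCDO1C libraries spanned the whole range. The log2 fold change was -0.25 with siCDO1A (SE 0.0787, 95% interval -0.41 to -0.08, adjusted p = 0.0376) and -0.13 with siCDO1C (interval -0.43 to 0.17, adjusted p = 0.67). The first call was lost without siCtrl replicate 1 (adjusted p = 0.139), siCtrl replicate 2 (0.201), siCDO1A replicate 1 (0.182) or siCDO1A replicate 2 (0.129), and the second value turned to 0.03 without siCDO1C replicate 2. TNRC6C (ENSG00000078687, chromosome 17, 77959240 to 78108835) ranged from 31.9 to 35.8 CPM in siCtrl, 33.0 to 38.5 with siCDO1A and 25.6 to 40.1 with siCDO1C, with log2 fold changes of 0.09 (adjusted p = 0.539) and 0.03 (adjusted p = 0.931), and 0.21 (adjusted p = 0.108) for the second without siCDO1C replicate 2. The summed TNRC6 level was 39.2 TPM in siCtrl, 38.2 with siCDO1A and 41.7 with siCDO1C. These 3 genes are paralogs as well, and the remark on shared reads holds for them too.

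DICER1 (ENSG00000100697) cuts precursor hairpins and long double-stranded RNA. Its level was 120, 106 and 105 CPM in siCtrl, 81.7, 85.4 and 98.2 with siCDO1A and 94.9, 75.6 and 95.4 with siCDO1C. All libraries of either siRNA lay below the siCtrl libraries. With siCDO1A its log2 fold change was -0.32 (SE 0.0739, 95% interval -0.47 to -0.16, adjusted p = 0.00584), or 19.7% below siCtrl. With siCDO1C it was also -0.32, with a wider error (SE 0.0958, interval -0.53 to -0.12, adjusted p = 0.0686), and did not pass. It passed without siCDO1C replicate 2, where it was smaller (-0.22, adjusted p = 0.024), and with the trends of length and GC content removed (-0.30, adjusted p = 0.0108). The siCDO1A call was lost only without siCtrl replicate 1, the highest library (adjusted p = 0.0556), among the 6 fits that left out 1 library.

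TARBP2 (ENSG00000139546, chromosome 12, 53500921 to 53506431) encodes a protein that binds double-stranded RNA and helps DICER1 pass its product to an argonaute. It had 25.7, 30.1 and 30.8 CPM in siCtrl, 36.9, 38.9 and 34.4 with siCDO1A and 36.4, 37.7 and 30.2 with siCDO1C. The siCDO1A libraries all lay above siCtrl, while siCDO1C replicate 3 fell within the siCtrl range. For TARBP2 the log2 difference was 0.34 with siCDO1A (SE 0.0896, 95% interval 0.16 to 0.53, adjusted p = 0.0127) and 0.26 with siCDO1C (SE 0.106, interval 0.03 to 0.49, adjusted p = 0.196), which was 0.20 (adjusted p = 0.181) without siCDO1C replicate 2. The siCDO1A call was lost without siCtrl replicate 1 (adjusted p = 0.0956) or siCDO1A replicate 2 (0.0758). TARBP2 is the shortest of the 10 genes, at 4090 bases in the count table, and the one for which siCDO1C replicate 2 was the highest of its group. DROSHA (ENSG00000113360, chromosome 5, 31400497 to 31532196), the nuclear enzyme of the first cut, was the flattest of the processing genes. It ranged from 66.1 to 69.6 CPM in siCtrl, 64.7 to 77.3 with siCDO1A and 65.9 to 76.1 with siCDO1C, with log2 fold changes of 0.02 (95% interval -0.14 to 0.18, adjusted p = 0.892) and 0.09 (interval -0.09 to 0.26, adjusted p = 0.642), the second being 0.15 (adjusted p = 0.133) without siCDO1C replicate 2.

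**Figure D4:**
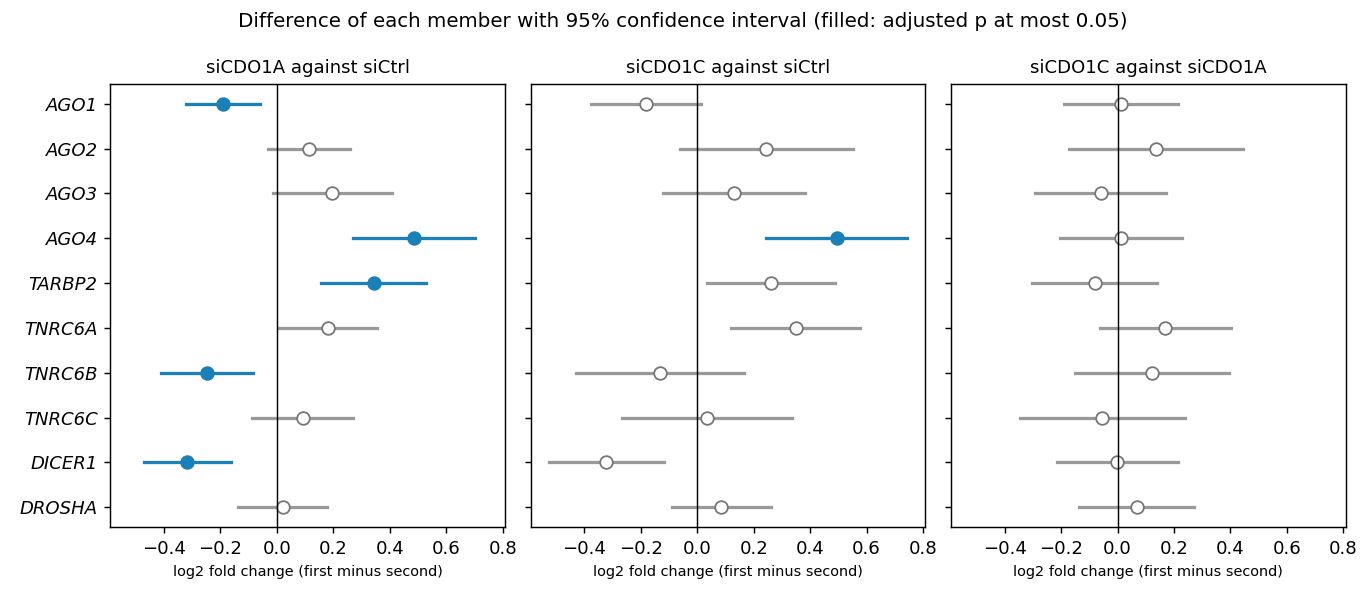
Log2 fold change of each of the 10 genes in the 3 comparisons, as a circle with its 95% confidence interval as a line, filled and blue where the adjusted p was at most 0.05. On the left AGO4 and TARBP2 lie above 0 and AGO1, TNRC6B and DICER1 below, in the middle AGO4 alone is filled, and on the right every interval spans 0.

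Set directly against each other, the siRNAs gave no call among the 10 genes with edgeR, where 0.444% of all genes were called, or with DESeq2. None of the 10 had an unadjusted p under 0.05 in edgeR, beside 7.65% of all genes. The log2 fold changes of siCDO1C against siCDO1A ran from -0.08 for TARBP2 to 0.17 for TNRC6A (adjusted p from 0.837 to 1). That of AGO4 was 0.01 with a 95% interval of -0.20 to 0.23, and that of DICER1 was -0.0014 with an interval of -0.22 to 0.21. For AGO2 it was 0.14 with an interval of -0.17 to 0.44. The 10 intervals reached from -0.35 (TNRC6C) to 0.44 (AGO2), so an equal response to the siRNAs is not shown. Without siCDO1C replicate 2, AGO2 was higher with siCDO1C than with siCDO1A (0.30, adjusted p = 0.0259).

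Per length, the order of the 10 genes over the 9 libraries was AGO2 (39.9 TPM), DROSHA (34.3), TARBP2 (31.1), DICER1 (29.8), AGO1 (28.0), AGO4 (18.1), TNRC6A (14.7), TNRC6B (13.2), TNRC6C (11.9) and AGO3 (3.80). AGO2 was above DROSHA in 9 of 9 libraries, AGO1 above AGO4, AGO4 above TNRC6A and TNRC6C above AGO3 likewise. The neighbours DROSHA and TARBP2 (6 of 9), TARBP2 and DICER1 (5 of 9), TNRC6A and TNRC6B (6 of 9) and TNRC6B and TNRC6C (6 of 9) did not keep their order, and DICER1 was above AGO1 in 8 of 9. This order pools the groups. Within siCtrl the mean of DICER1 (34.7 TPM) was above that of DROSHA (33.8), and that of AGO1 (30.8) above that of TARBP2 (27.2). AGO4 and TNRC6B had nearly the same mean there (14.50 and 14.51 TPM), and TNRC6B was the higher in siCtrl replicate 2 (15.4 against 13.1 TPM) and in replicate 3 (12.8 against 12.7). TARBP2, at 33.9 TPM, was above AGO2, at 31.6, in siCDO1C replicate 2. The step from TNRC6C to AGO3, 3.12-fold, was the widest between neighbours in this order. The length used is that of all exons of a gene in the count table, 21157 bases for AGO3, and transcripts in these cells may be shorter.

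**Figure D5:**
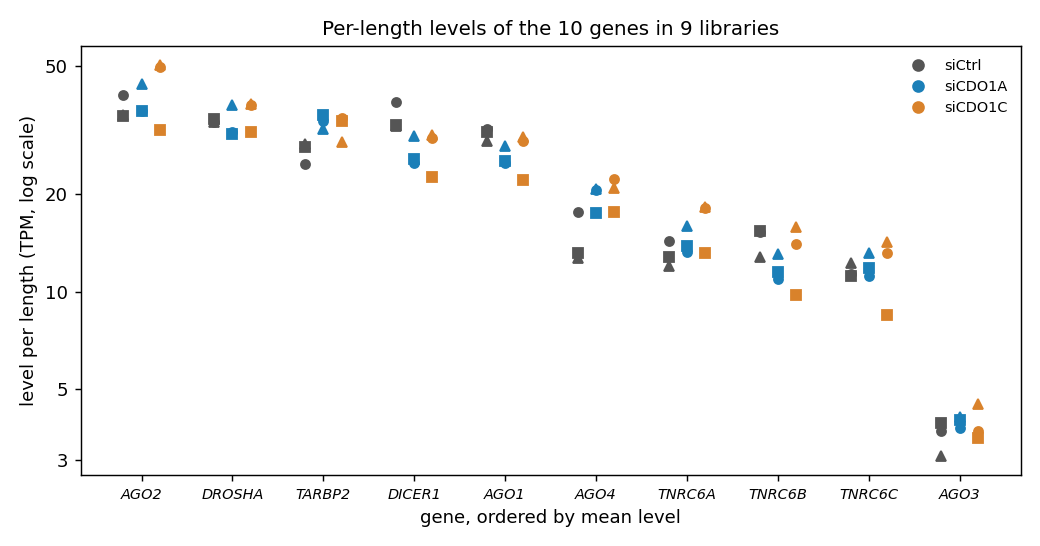
Per-length level (TPM, log axis) of the 10 genes in the 9 libraries, ordered by mean, with colours for the groups and marker shapes for replicates 1 (circle), 2 (square) and 3 (triangle). AGO2 has the highest mean, its range of 31.6 to 50.2 TPM overlaps those of DROSHA (up to 38.2), TARBP2 (up to 35.2) and DICER1 (up to 38.7), and AGO3 lies apart at 3.09 to 4.47 TPM.

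A wider list of genes that work with these, written by hand, held 85 genes of the table, of which 77 were tested. With siCDO1A 9 were higher and 4 lower (16.9%, against 14.8% of all genes), and with siCDO1C 3 were higher and 3 lower (7.79%, against 4.77%). With both, 3 were higher and 2 lower. Set directly against each other, the siRNAs gave no call among the 77 with edgeR or DESeq2, with 7 at an unadjusted p under 0.05 (9.09%, beside 7.65% of all genes). The counts of the sublists below stand beside 7.37% of all genes higher and 7.48% lower with siCDO1A, and 2.27% higher and 2.5% lower with siCDO1C, and those at an unadjusted p with siCDO1C beside 18.6%; with so few genes in each, nothing is read from them. Partners of DROSHA and DICER1 and export factors had 2 of 9 higher with siCDO1A and 0 with siCDO1C (2 at an unadjusted p under 0.05). Factors of small RNA turnover had 1 of 10 higher and 0, respectively (2 at an unadjusted p under 0.05 with siCDO1C). Chaperones and modifiers of argonautes had 2 of 12 lower with siCDO1A and 1 lower with siCDO1C. Sensors of double-stranded RNA had 1 of 9 higher with siCDO1A and 0 with siCDO1C by edgeR (1 at an unadjusted p under 0.05), and all 4 PIWI genes, argonautes of the germ line, were below the filter.

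Deadenylation, the step that TNRC6 proteins trigger, had 2 of 18 genes higher with each siRNA (11.1%, beside 7.37% of all genes with siCDO1A and 2.27% with siCDO1C), and these were the same genes, CNOT3 and BTG2. CNOT3, a subunit of the CCR4-NOT deadenylase, had 85.1, 81.0 and 83.4 CPM in siCtrl, 111, 112 and 110 with siCDO1A and 120, 101 and 116 with siCDO1C, without overlap. Its log2 fold change was 0.41 (adjusted p = 6.3e-05) and 0.42 (adjusted p = 0.00651). BTG2, an antiproliferative protein that binds this deadenylase, had 58.1 CPM in siCtrl. It was higher by 0.28 (adjusted p = 0.00736) and 0.38 (adjusted p = 0.0104) on the log2 scale. Without siCDO1C replicate 2 the siCDO1C values were 0.50 for CNOT3 (adjusted p = 5.9e-07) and 0.34 for BTG2 (adjusted p = 8.4e-04). The siCDO1C calls were lost for both without siCtrl replicate 2 (adjusted p = 0.0657 and 0.071) or siCtrl replicate 3 (0.0527 and 0.0688), and for BTG2 without siCtrl replicate 1 (0.0607).

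Decapping and P-body genes had 3 of 19 higher and 2 lower with siCDO1A, and 1 higher and 2 lower with siCDO1C, beside 7.37% and 7.48% of all genes with the former and 2.27% and 2.5% with the latter. LSM14A, a P-body protein that binds RNA, had 123, 124 and 117 CPM in siCtrl, 190, 193 and 202 with siCDO1A and 195, 196 and 188 with siCDO1C. Its log2 fold change of 0.69 (adjusted p = 5.0e-08) and 0.66 (adjusted p = 5.5e-05) exceeded that of AGO4. AJUBA and WTIP, LIM-domain proteins found in P-bodies and at cell junctions, were lower. AJUBA had 20.1, 18.1 and 19.1 CPM in siCtrl, 12.0, 13.0 and 11.5 with siCDO1A and 9.78, 10.0 and 8.24 with siCDO1C. Its log2 fold change was -0.66 (adjusted p = 2.6e-04) and -1.04 (adjusted p = 2.0e-04), and the direct comparison gave -0.38 (adjusted p = 0.446). WTIP had 11.2 CPM in siCtrl and was lower by 0.50 (adjusted p = 0.0179) and by 0.58 (adjusted p = 0.0466) on the log2 scale. Without siCDO1C replicate 2 the siCDO1C values were 0.66 for LSM14A (adjusted p = 3.3e-10), -1.08 for AJUBA (4.9e-07) and -0.46 for WTIP (0.0406). The WTIP call was lost with siCDO1A without siCtrl replicate 2 (adjusted p = 0.0846) or 3 (0.0596), and with siCDO1C without siCtrl replicate 1 (0.08), 2 (0.198) or 3 (0.188) or siCDO1C replicate 3 (0.0989). Those of LSM14A and AJUBA were kept when any 1 library was left out. None of these 5 genes holds GCAGTACA in its 3′UTR.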

How the data were processed

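RNA of 9 VCaP samples was measured in 3 groups of 3. Per the labels and methods, the authors sent RNA for poly(A) selection, dUTP-stranded library preparation and paired-end sequencing, and obtained gene counts with featureCounts; the submitters' processing notes name CASAVA, HISAT2 2.0.5 and hg38. Strand and multiple-mapping settings are not given in the sources used here. The authors deposited whole-number counts without normalization, used as deposited. A set of 3 columns of no sample here was not used.

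Genes were kept by filterByExpr of edgeR 4.0.16 (minimum count 10) in R 4.3.3, scaled by TMM, and tested with the quasi-likelihood test (robust) on the 6 libraries of each comparison, without a batch term. P-values were adjusted by Benjamini-Hochberg over all 15555 genes and called at 0.05. Levels are CPM after TMM, and TPM from the gene lengths in the table. The p-values measure the spread between these libraries. Single values were compared by exact permutation tests. Scripts were tested on simulated data.

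The genes described, the wider list, the 8-letter sequence and the motifs were chosen with earlier results of these data known. All 10 genes are named, and of the wider list those called with both siRNAs. Some items are not reported here. Other genes, such as those with at least 2 copies of the sequence, were named after their values were seen. Alternatives were DESeq2 1.42.0, 1 fit of 9 libraries, RLE size factors, other filters, the replicate number as a block, an adjusted p of 0.01, leaving out each library, and, added after seeing the data, another quasi-likelihood setting, GENCODE transcript lengths and removal of trends with length and GC content (known for 99.3% of genes). 3′UTRs came from GENCODE on GRCh37, promoters and microRNAs from RefSeq. Correlations of same-numbered libraries, given below, did not show a pairing by replicate number and cannot exclude one.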

Additional observations from a re-analysis of the deposited data

How the results depend on the processing

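With siCDO1A, the genes called among the 10, the wider list and all genes numbered 3, 7 and 1369 in 1 fit of all 9 libraries, 3, 6 and 1358 with the replicate block, and 2, 6 and 1107 at an adjusted p of 0.01. With length and GC trends removed, 21 genes of the wider list were called. With siCDO1C, the genes called among the 10 numbered 3 in 1 fit of all 9 libraries, 3 without a filter, 2 with the replicate block and 0 at 0.01 (edgeR, beside 4 at an unadjusted p under 0.05), where the wider list had 3 and all genes 282. With the trends removed these were 3, 11 and 1442. Counts over all genes are not given here for the siCDO1A fit with the trends removed. The same holds for siCDO1C in 1 fit of all 9 libraries, without a filter and with the replicate block. Nothing is therefore read from the counts of those fits. Between the siRNAs, 104 genes were called by DESeq2, 128 in 1 fit, 147 without a filter, 121 with the block, 24 at 0.01 and 187 with the trends removed, against 69. Correlations of deviations between same-numbered libraries ran from -0.384 to 0.385 over 11332 genes. In both other groups at once, 0 libraries correlated best with the library of their own number. The labels give the replicate number as the batch, and these correlations cannot show that the libraries were not paired. Per CPM rather than per length, the share of AGO4 was 3.10 and 2.70 points above siCtrl.

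Without 1 library each, the counts for the 10, the wider list and all genes ran from 1 to 5, 7 to 20 and 1292 to 3454 with siCDO1A, from 0 to 4, 2 to 22 and 263 to 2068 with siCDO1C, and from 0 to 1, 0 to 4 and 18 to 447 between the siRNAs. The lowest with siCDO1A came without siCtrl replicate 1 for the 10 and the wider list, and without siCtrl replicate 2 for all genes. The highest with siCDO1C came without siCDO1C replicate 2. Signs turned for values near 0. DROSHA with siCDO1A ran from -0.072 to 0.065, and with siCDO1C TNRC6B ran from -0.26 to 0.029 and TNRC6C from -0.085 to 0.21. Between the siRNAs AGO1 ran from -0.047 to 0.12, AGO4 from -0.054 to 0.081, TNRC6B from -0.0087 to 0.28, TNRC6C from -0.17 to 0.12, DICER1 from -0.057 to 0.10 and TARBP2 from -0.14 to 0.0077. There DICER1 was 0.0045 by DESeq2, 0.0025 in 1 fit, 0.0043 with RLE and 0.0069 without a filter, and with the trends removed AGO1 was -0.0084 and AGO4 -0.0041. The causes were not tested. Lengths of RefSeq transcripts were not run, and GENCODE lengths were used instead. Counts of these genes were far above the floor in each library. They were fewest for AGO3 (255 to 345), and a limit set by depth was not tested.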

Other observations

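Among the genes whose pattern over the 9 libraries was most like that of AGO4, the gene of the 10 with the lowest adjusted p, were AC131212.2 (Pearson r = 0.952) and RNF144A, a ubiquitin ligase (0.952). These correlations are over libraries of 3 groups that differ in AGO4, and they are given as a description without a test. RNF144A had 40.4 to 47.4 CPM in siCtrl, 47.7 to 55.2 with siCDO1A and 51.6 to 57.8 with siCDO1C. AC131212.2 had few counts, from 0.238 CPM in siCtrl replicate 2, at the floor of that library, to 0.924 CPM, so that its likeness rests on little.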
